A study of Mus musculus with 21 samples.

Results

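The 10 genes described here encode integrin subunits that attach fibroblasts to the extracellular matrix. They are 7 alpha subunits (Itga1, Itga2, Itga4, Itga5, Itga8, Itga11 and Itgav) and 3 beta subunits (Itgb1, Itgb3 and Itgb5). They were taken by name, with no threshold on their values, under the capitalized symbols ITGA1, ITGA2, ITGA4, ITGA5, ITGA8, ITGA11, ITGAV, ITGB1, ITGB3 and ITGB5, and all 10 were found among the 24447 genes listed in each of the 3 count tables. Bulk RNA-seq had been run on 21 cultures of mouse fibroblasts in 7 groups of 3, and the comparisons ask what loss of the transcription factor Prrx1 changes in each fibroblast type.

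The cultures held 3 kinds of fibroblast, all immortalized with viral genes (labelled HPV E6/E) and grown in serum-containing medium. Mouse embryonic fibroblasts (MEF) came from C57BL/6 embryos at E10 to E13. Wound-healing fibroblasts came from dorsal skin wounds of C57BL/6 mice at day 10 after wounding. MMTV-CAF were cancer-associated fibroblasts from mammary tumors of MMTV-PyMT mice, labelled FVB/NJ. In each kind, a culture labelled sgPrrx1 carried a CRISPR/Cas9 guide against the first exon of Prrx1, and the WT culture was the control (sgNS). A further MEF group, here called Prrx1 mutant MEF and labelled KI, came from embryos with the allele 129S-Prrx1tm1Jfm/Mmmh. The mutant and sgPrrx1 MEF were compared with the same 3 WT MEF cultures. The labels do not say whether replicates were separate cell lines or repeat cultures of one line, so p-values may measure technical spread alone.

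Integrins are receptors made of 1 alpha and 1 beta chain, and the pairing decides which matrix protein is held. The Itgb1 chain pairs with Itga1, Itga2 and Itga11 to bind collagens, with Itga5 to bind fibronectin, with Itga8 to bind nephronectin and other ligands with the RGD motif, and with Itga4 to bind fibronectin and Vcam1. Itgav pairs with Itgb1, Itgb3 or Itgb5 to bind vitronectin and to hold latent TGF-beta. Itga11 is the collagen receptor best known from activated fibroblasts, and Itga8 is known from contractile stromal cells.

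In the GRCm38.p6 assembly (RefSeq), the member genes lie on 7 chromosomes: Itga8 at chr2:12106632-12301985, Itga4 at chr2:79255426-79333114, Itgav at chr2:83722303-83806917, Itgb1 at chr8:128685654-128733579, Itga11 at chr9:62677855-62783979, Itgb3 at chr11:104608000-104670476, Itga2 at chr13:114833081-114932100, Itga1 at chr13:114958079-115101964, Itga5 at chr15:103344286-103366791 and Itgb5 at chr16:33829665-33949338. The 250 bases upstream of the start site in the RefSeq promoter table are printed for the 3 members whose group means ranged most widely, Itga11, Itga2 and Itga8. They come from RefSeq (GRCm38.p6, the mm10 build to which the reads were aligned), in which 9 of the 10 members had an entry and Itgb3 was not matched. A start site there need not be the end of the gene span given above. The Itga8 window partly overlaps its gene span, and the Itgav window (chr2:83724147-83724396) lies within its gene span. Capitals mark the only match to a searched motif, CAGACA, a sequence that SMAD proteins bind.
Itga11, chr9:62677605-62677854, plus strand: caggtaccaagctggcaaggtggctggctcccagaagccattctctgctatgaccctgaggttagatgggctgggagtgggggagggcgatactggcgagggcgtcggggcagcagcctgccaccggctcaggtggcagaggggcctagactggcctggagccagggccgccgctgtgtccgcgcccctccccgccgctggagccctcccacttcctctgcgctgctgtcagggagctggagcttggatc
Itga2, chr13:114932101-114932350, minus strand: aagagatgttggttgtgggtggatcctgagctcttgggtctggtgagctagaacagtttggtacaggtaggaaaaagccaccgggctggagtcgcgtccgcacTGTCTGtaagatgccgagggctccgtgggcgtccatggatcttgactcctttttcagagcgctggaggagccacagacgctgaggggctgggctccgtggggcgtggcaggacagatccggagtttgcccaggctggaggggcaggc
Itga8, chr2:12301945-12302194, minus strand: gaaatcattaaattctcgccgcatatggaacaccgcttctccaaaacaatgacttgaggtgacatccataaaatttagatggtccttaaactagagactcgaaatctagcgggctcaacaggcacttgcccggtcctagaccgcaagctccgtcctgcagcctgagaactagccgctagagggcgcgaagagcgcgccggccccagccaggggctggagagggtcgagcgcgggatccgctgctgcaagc
Each motif was searched on both strands of these 250-base windows. TAATTA, a site for homeodomain factors such as Prrx1, was in 0 of the 9 member windows and in 4.84% of all 32851 windows. TGANTCA, a site for AP-1 factors, was in 0 of 9 and in 6.75% of all. CAGACA was in 3 of 9 (Itga2, Itga4 and Itgb1) and in 17.1% of all. None of these motifs contains another, and a match is a description of letters only. Itga1 and Itga2 are neighbors on chromosome 13, with 25978 bases between them.

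Total counts per culture ran from 69588655 to 134790440. Prrx1 itself, in CPM (counts divided by the library's effective size, scaled across all 21 cultures), was 166, 184 and 192 in WT MEF and 19.9, 20.7 and 26.1 in mutant MEF. It was 94.9, 126 and 140.5 in sgPrrx1 MEF, from 64.2 to 65.3 against 143 to 152 in wound-healing fibroblasts, and from 301 to 309 against 627 to 636 in MMTV-CAF. These means were 12.3% of WT in mutant MEF, 66.6% in sgPrrx1 MEF, 44.1% for wound-healing fibroblasts and 48.4% for MMTV-CAF. A guide that cuts the first exon need not remove the transcript. The 10 listed fibroblast markers summed to between 12205 and 12475 CPM in WT MEF, 5595 and 6849 in mutant MEF and 9589 and 11274 in sgPrrx1 MEF. Their sum was between 8232 and 8380 CPM in WT and 3239 and 3255 in sgPrrx1 wound-healing fibroblasts, and between 31717 and 32315 in WT and 15763 and 15965 in sgPrrx1 MMTV-CAF. Of those tested, 8 of 8 fell in mutant MEF, 7 of 8 in sgPrrx1 MEF, 10 of 10 in wound-healing fibroblasts. In MMTV-CAF, 7 of 9 fell. Of all tested genes, 30.5, 22.8, 39.3 and 41.9% fell in these comparisons, in the same order. Lum and Fap were at 0 counts in all mutant MEF cultures, Lum in sgPrrx1 wound-healing fibroblasts and Fap in sgPrrx1 MMTV-CAF. Of 6 smooth muscle and pericyte markers, 4 of 5 tested fell and 1 rose in mutant MEF, and 5 of 5 fell in sgPrrx1 MEF. In wound-healing fibroblasts 4 of 5 fell and 1 rose. In MMTV-CAF 6 of 6 fell, and their sum was between 2282 and 2330 CPM in WT and 173 and 177 in sgPrrx1. Most of that sum was Acta2, at 2107 CPM in WT and 139.7 in sgPrrx1 MMTV-CAF. The shares of all genes that fell are those given for the fibroblast markers, and 29.4% rose in mutant MEF and 38.3% in wound-healing fibroblasts. The 8 listed epithelial markers summed to between 17.9 and 19.96 CPM in WT MEF and between 198 and 239 in mutant MEF, of which Krt19 averaged 12.3 and 219 CPM, with Epcam and Krt5 at 0 in both. Of 6 tested in mutant MEF, 4 rose and 2 fell. The same list summed to between 52.2 and 54.3 CPM in WT MMTV-CAF, nearly all of it Krt19, and to between 0.603 and 0.857 in sgPrrx1 MMTV-CAF. The 8 leukocyte markers summed to less than 8 CPM in each culture, and Adgre1 and Cd3e were at 0 in all. Among endothelial markers, Kdr was at 290.3 CPM in WT and 142 in sgPrrx1 wound-healing fibroblasts, with Pecam1 at 0. Kdm5d, a gene on the Y chromosome, had 744 to 923 counts in WT MEF, 654 to 676 in sgPrrx1 MEF and 0 to 3 in mutant MEF. It had 819 to 974 counts in WT and 955 to 1184 in sgPrrx1 wound-healing fibroblasts, and 0 in all MMTV-CAF cultures. The part of these differences in the integrin results was not tested. Mutant MEF differed from WT and sgPrrx1 MEF in Kdm5d as well as in the Prrx1 allele. These cannot be told apart in comparisons with mutant MEF. In bulk RNA, fewer cells of a kind and less RNA per cell cannot be told apart.

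Across the 4 comparisons with WT, the 10 subunits did not move as 1 group. In mutant MEF, 5 of 9 tested members fell and 3 rose. In sgPrrx1 MEF, 5 of 8 fell and 0 rose, and 0 rose with DESeq2 or at an unadjusted p under 0.05 in edgeR. Of sgPrrx1 wound-healing fibroblasts' 9 tested members, 6 fell and 2 rose, and in sgPrrx1 MMTV-CAF 7 of 9 fell and 1 rose (edgeR's quasi-likelihood test, Benjamini-Hochberg adjusted p under 0.05). Changes were common among all genes: 59.9% of tested genes passed in mutant MEF, 43.1% in sgPrrx1 MEF, 77.6% for wound-healing fibroblasts and 83.1% for MMTV-CAF. Of all genes, 30.5, 22.8, 39.3 and 41.9% fell and 29.4, 20.3, 38.3 and 41.2% rose in these comparisons, in the same order. The median log2 fold change of tested members was −0.32, −1.43, −0.34 and −0.60, and that of all tested genes was between −0.003 and 0.01. Members that were not tested had too few counts, Itga2 in both MEF comparisons and Itga4 in all but the mutant. With a change of at least 2-fold also required, the falling members were 2 in mutant MEF and 5 in sgPrrx1 MEF, while wound-healing fibroblasts had 2 and MMTV-CAF 3, where 14.5, 8.97, 7.06 and 12.8% of all genes fell that far. The rising members were then 2, 0, 1 and 0, against 9.64, 1.58, 8.57 and 11.5% of all genes. With all 21 cultures in 1 model, 8 members rather than 5 were called lower in sgPrrx1 MEF, with Itgb1 and the otherwise untested Itga2 and Itga4 added. Itga2 and Itga4 passed the filter of that model only through counts in groups outside this comparison. They had at most 15 counts in a WT MEF culture and 0 in each sgPrrx1 MEF culture, too few to be read as falls. Itga8 was the 1 member that fell in all 4 comparisons, although its call in mutant MEF was lost with the replicate number as a block (adjusted p = 0.063), and 5 members (Itga2, Itga5, Itga11, Itgb3 and Itgb5) passed in both directions in different comparisons.

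**Figure D1:**
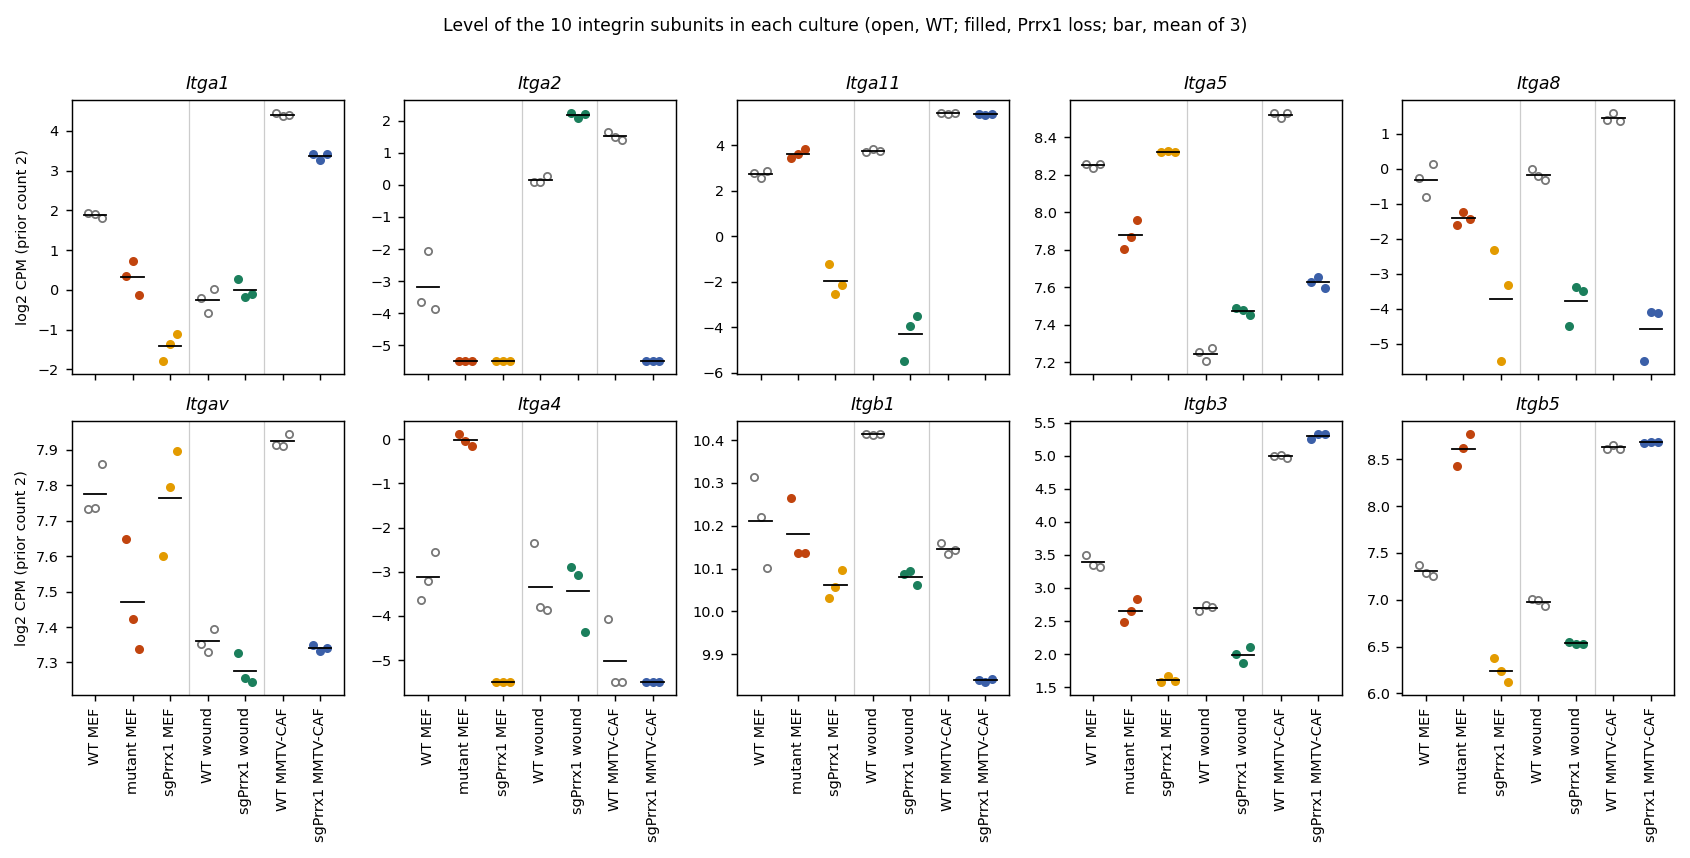
Level of each of the 10 subunits in each culture, as log2 CPM with a prior count of 2 (each panel has its own axis). Open points are WT, filled points are Prrx1-loss cultures and the bar is the mean of 3 cultures; cultures with 0 counts sit at the lowest level of the scale. The loss cultures of Itga11 lie far below WT in sgPrrx1 MEF and wound-healing fibroblasts, above WT in mutant MEF and overlapping WT in MMTV-CAF.

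**Figure D2:**
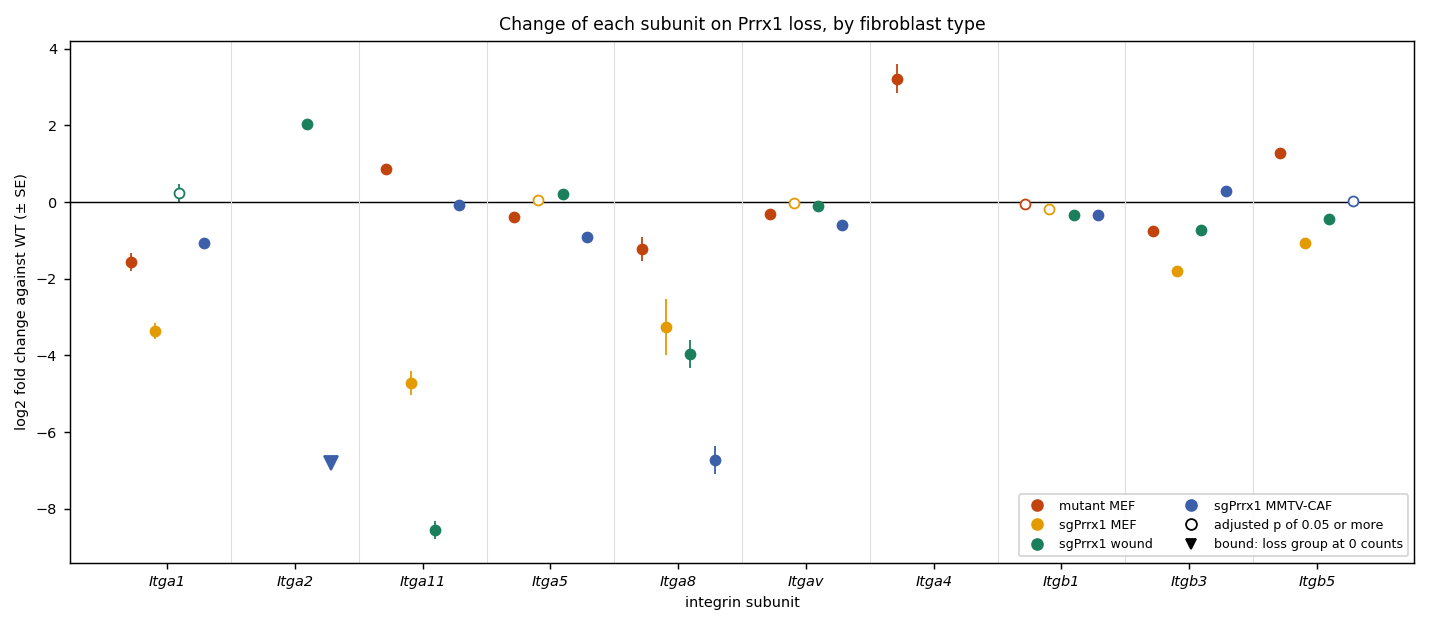
Log2 fold change against WT of the same fibroblast type, with its standard error, for the 10 subunits and 4 comparisons. Filled points passed the adjusted p of 0.05, open points did not, and the triangle is a bound for Itga2 in MMTV-CAF, whose loss cultures were at 0 counts. Itga8 is below 0 in all 4 comparisons, whereas Itga2, Itga5, Itga11, Itgb3 and Itgb5 have called changes on both sides.

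Among the collagen receptors, Itga11 had the widest range of group means. In wound-healing fibroblasts it was at 12.9, 13.4 and 14.3 CPM in WT and at 0, 0.0429 and 0.0666 CPM in sgPrrx1, the latter from 0, 4 and 5 counts. The groups lay far apart, and the log2 fold change was −8.55 ± 0.24 (SE, adjusted p = 7.04e-09). With so few counts the size was uncertain, at −7.95 without sgPrrx1 replicate 1 and −9.19 without sgPrrx1 replicate 3. In MEF it was at 5.98, 6.82 and 7.22 CPM in WT and at 0.148, 0.206 and 0.414 CPM in sgPrrx1, a log2 fold change of −4.72 ± 0.32 (adjusted p = 7.57e-05). In mutant MEF it was higher than in WT, at 10.99, 12.2 and 14.2 CPM (0.88 ± 0.13, adjusted p = 0.00102). The mutant and sgPrrx1 MEF therefore lay on opposite sides of the same WT cultures. In MMTV-CAF, Itga11 stood at 42.1, 42.8 and 43.3 CPM in WT and at 39.96, 41.1 and 42.2 CPM in sgPrrx1. These ranges overlapped, and the log2 fold change of −0.08 ± 0.03 (adjusted p = 0.0359) lost its call without either of 2 WT cultures (replicates 1 and 3) or either of 2 sgPrrx1 cultures (replicates 2 and 3), at adjusted p between 0.0899 and 0.146. Scaled by library totals alone it was 0.058.

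Itga1, which binds collagens of basement membranes among others, was at 3.46, 3.72 and 3.80 CPM in WT MEF, at 0.895, 1.25 and 1.64 CPM in mutant MEF and at 0.266, 0.369 and 0.438 CPM in sgPrrx1 MEF. The 3 groups did not overlap, and both losses were called, at −1.55 ± 0.23 (adjusted p = 0.0013) and −3.35 ± 0.21 (adjusted p = 5.26e-05). In MMTV-CAF it fell from 20.6, 21.2 and 21.9 CPM to 9.62, 10.6 and 10.7 CPM (−1.06 ± 0.05, adjusted p = 2.52e-07). In wound-healing fibroblasts it was low in both groups, from 0.643 to 0.996 CPM in WT and from 0.859 to 1.20 CPM in sgPrrx1, and the difference of 0.24 ± 0.23 was not called (adjusted p = 0.355).

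Itga2, the other collagen-binding subunit, had 4, 15 and 4 counts in the WT MEF cultures and 0 in all 6 Prrx1-loss MEF cultures, too few to test. In MMTV-CAF it had 334, 321 and 343 counts in WT (2.59 to 3.12 CPM) and 0 in each sgPrrx1 culture, so it was at least 113-fold lower if up to 3 counts per culture are allowed for a count of 0 (adjusted p = 1.04e-06). In wound-healing fibroblasts it rose instead, from 1.04, 1.05 and 1.18 CPM in WT to 4.21, 4.61 and 4.73 CPM in sgPrrx1 (2.04 ± 0.11, adjusted p = 3.14e-07). Itga2 rose in wound-healing fibroblasts while its neighbor Itga1 was not called there, and both fell in MMTV-CAF.

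Among the subunits that bind RGD ligands, Itga8 was lower in each loss group, at low counts. In MMTV-CAF it was at 2.57, 2.62 and 3.02 CPM in WT (280 to 347 counts) and at 0, 0.0357 and 0.0369 CPM in sgPrrx1 (0, 5 and 4 counts), a log2 fold change of −6.74 ± 0.37 (adjusted p = 6.76e-07). Wound-healing fibroblasts had it at 0.776, 0.840 and 0.974 CPM in WT and at 0.0224, 0.0666 and 0.0751 CPM in sgPrrx1 (−3.96 ± 0.37, adjusted p = 1.17e-05). In MEF, WT cultures held 0.547, 0.812 and 1.08 CPM, mutant cultures 0.310, 0.352 and 0.401 CPM and sgPrrx1 cultures 0, 0.0774 and 0.177 CPM. The MEF groups did not overlap, and the log2 fold changes were −1.22 ± 0.32 in the mutant (adjusted p = 0.014) and −3.26 ± 0.73 in sgPrrx1 (adjusted p = 0.0113). The sgPrrx1 value was −4.28 without sgPrrx1 replicate 1 and −2.69 without sgPrrx1 replicate 2, and the mutant's call was lost with the replicate number as a block (−1.17, adjusted p = 0.063). Most smooth muscle and pericyte markers also fell in these comparisons, with 1 called higher in mutant MEF and 1 in wound-healing fibroblasts. Their part in the result was not tested.

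Itga5, the fibronectin receptor chain, had the highest mean RPKM (CPM per kilobase of exon) of the alpha members in each group. In CPM it was between 302 and 306 CPM in WT MEF, between 223 and 248 in mutant MEF (−0.40 ± 0.07, adjusted p = 0.00268) and between 319 and 321 in sgPrrx1 MEF (0.06 ± 0.05, adjusted p = 0.395). It rose in wound-healing fibroblasts, from between 148 and 155 CPM to between 175 and 179 CPM (0.22 ± 0.02, adjusted p = 2.03e-05). In MMTV-CAF it fell from between 363 and 369.6 CPM to between 193 and 201 CPM (−0.91 ± 0.02, adjusted p = 3.89e-09), without overlap.

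Itgav, the alpha chain of the vitronectin receptors, fell in MMTV-CAF from between 240.5 and 247 CPM to between 161 and 163 CPM (−0.60 ± 0.02, adjusted p = 1.62e-08). In MEF it was at 213, 213 and 232 CPM in WT, at 162, 172 and 201 CPM in the mutant and at 194, 222 and 238 CPM in sgPrrx1. The sgPrrx1 cultures overlapped WT (−0.02 ± 0.09, adjusted p = 0.867). The mutant's fall of −0.32 ± 0.11 (adjusted p = 0.0355) was no longer called when any 1 of 5 of the 6 cultures was left out, at adjusted p from 0.0698 to 0.125, and kept its call only without mutant replicate 1. In wound-healing fibroblasts the change was −0.09 ± 0.03 (adjusted p = 0.0143), from between 161 and 168 CPM to between 152 and 161 CPM, and it was lost without sgPrrx1 replicate 2 or replicate 3 (adjusted p = 0.0571 each). Scaled by library totals alone it was 0.026.

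Itga4, a subunit best known from leukocytes and neural crest derivatives, was at or near 0 in 6 of the 7 groups. WT MEF had 4, 6 and 13 counts, WT wound-healing fibroblasts 16, 4 and 4, and WT MMTV-CAF 4, 0 and 0. Mutant MEF had 83, 80 and 60 counts (0.880 to 1.07 CPM), 3.23 ± 0.37 above WT on the log2 scale (adjusted p = 0.000344), and sgPrrx1 MEF had 0 in each culture. Leukocyte markers summed to 3.08 to 4.48 CPM in mutant MEF and 3.36 to 4.35 CPM in WT MEF. The summed epithelial markers were higher in mutant MEF, but most of that sum was Krt19, and of 6 tested 4 rose and 2 fell. Their part in the result was not tested.

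Of the beta subunits, Itgb1 was the highest in level, with the narrowest range of group means. In wound-healing fibroblasts it fell from 1364, 1364 and 1366 CPM in WT to 1069, 1088 and 1093 CPM in sgPrrx1 (−0.34 ± 0.01, adjusted p = 3.24e-08). In MMTV-CAF it fell from 1124, 1131 and 1143 CPM to 913, 916 and 917 CPM (−0.33 ± 0.01, adjusted p = 8.97e-08). The replicates of these groups lay close together. In MEF it was between 1098 and 1272 CPM in WT, between 1125 and 1231 in the mutant and between 1046 and 1094 in sgPrrx1. Neither MEF difference was called (−0.06 ± 0.09 and −0.17 ± 0.08, adjusted p = 0.631 and 0.116), although the sgPrrx1 fall passed without WT replicate 3 (−0.22, adjusted p = 0.0439).

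Itgb3, the beta chain of the vitronectin receptor also found on platelets, fell in 3 comparisons and rose in 1. It was at 9.99, 10.1 and 11.3 CPM in WT MEF, at 5.56, 6.23 and 7.13 CPM in mutant MEF (−0.76 ± 0.12, adjusted p = 0.00164) and at 2.96, 3.005 and 3.15 CPM in sgPrrx1 MEF (−1.80 ± 0.10, adjusted p = 3.66e-05). It also fell in wound-healing fibroblasts, from between 6.28 and 6.66 CPM to between 3.64 and 4.27 CPM (−0.72 ± 0.08, adjusted p = 3.87e-05). In MMTV-CAF it rose from between 31.1 and 32.3 CPM to between 38.1 and 40.4 CPM (0.30 ± 0.03, adjusted p = 3.4e-05).

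Itgb5, which joins Itgav, was above WT in mutant MEF and below WT in sgPrrx1 MEF. WT MEF had 153, 156 and 165 CPM, mutant MEF 344, 394 and 438 CPM (1.29 ± 0.10, adjusted p = 5.86e-05) and sgPrrx1 MEF 69.5, 75.4 and 83.1 CPM (−1.07 ± 0.08, adjusted p = 0.000146). It fell in wound-healing fibroblasts, from between 122 and 129 CPM to between 92.5 and 93.5 CPM (−0.45 ± 0.03, adjusted p = 4.42e-07). In MMTV-CAF it was at 390.5, 392 and 404 CPM in WT and between 409.7 and 412 CPM in sgPrrx1. The difference of 0.04 ± 0.02 was not called (adjusted p = 0.105). It was called without WT replicate 2 (0.05, adjusted p = 0.0188) and with library totals alone (0.17, adjusted p = 7.13e-05).

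The mutant and sgPrrx1 MEF were also compared directly, a test in which the shared WT cultures do not enter. These groups also differed in Kdm5d, so the kind of Prrx1 loss cannot be told apart from other differences between them. Of 9 tested members, 5 were lower and 1 was higher in sgPrrx1 than in mutant MEF, where 56.2% of all genes passed, 28.4% lower and 27.8% higher. Itga11 was 5.60 ± 0.31 lower (adjusted p = 1.88e-05), Itgb5 2.36 ± 0.11 lower (adjusted p = 1.18e-05), Itga1 1.81 ± 0.31 lower (adjusted p = 0.00282) and Itgb3 1.05 ± 0.11 lower (adjusted p = 0.000382) on the log2 scale. Itga4, at 0 in sgPrrx1 MEF, was at least 22.8-fold lower (adjusted p = 0.000266), and Itga5 was 0.45 ± 0.06 higher (adjusted p = 0.000826). Itga8 (−2.04 ± 0.73, adjusted p = 0.0516), Itgav (0.30 ± 0.11, adjusted p = 0.0636) and Itgb1 (−0.11 ± 0.07, adjusted p = 0.214) were not called. Itga8 passed with DESeq2 (adjusted p = 0.0355), with halved counts (0.0308) and without sgPrrx1 replicate 1 (−3.07, 0.0272). Itgav passed with DESeq2 (adjusted p = 0.0313) and without mutant replicate 1 (0.0158) or sgPrrx1 replicate 1 (0.0459).

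Whether the sgPrrx1 change differed between the 3 fibroblast types was tested as an interaction, with mutant MEF left out. All 10 members passed, against 80.1% of all genes, and Itga4 passed at counts near the floor and lost its call in 15 of 23 alternatives. Between wound-healing fibroblasts and MEF 60.3% of all genes differed (31.5% in the lower direction and 28.8% in the higher), between MMTV-CAF and MEF 60.7% (30.5% and 30.2%), and between MMTV-CAF and wound-healing fibroblasts 66.5% (31.7% and 34.8%). Itga11 differed in each pair of types, with sizes that rest on 0, 4 and 5 counts in sgPrrx1 wound-healing fibroblasts. Its change in MMTV-CAF was above that in wound-healing fibroblasts by 8.53 ± 0.33 and above that in MEF by 4.67 ± 0.26, and its change in wound-healing fibroblasts less that in MEF was −3.86 ± 0.51, all on the log2 scale (adjusted p = 2.23e-12, 3.62e-10 and 8.81e-06). Itgb3 changed differently in each pair of types, by between 1.04 and 2.11 in size (adjusted p at most 9.33e-08), and Itga1 did so as well. The fall of Itgb1 in wound-healing fibroblasts was not told apart from that in MMTV-CAF (difference 0.06 ± 0.06, adjusted p = 0.363), and its overall difference between types was lost when scaled by library totals alone (adjusted p = 0.745). The fall of Itga8 in MEF was not told apart from that in wound-healing fibroblasts (−0.73 ± 0.89, adjusted p = 0.509), and that in MMTV-CAF was larger than either (adjusted p = 0.00509 against MEF and 0.0246 against wound-healing fibroblasts). Each sgPrrx1 group was near 0 for Itga8, with at most 12 counts per culture, so the size of each fall is limited by its WT level. WT cultures had 280 to 347 counts in MMTV-CAF, 38 to 94 in MEF and 67 to 89 in wound-healing fibroblasts. Itgav fell more in MMTV-CAF than in either other type (adjusted p = 1.03e-05 and 6.05e-05), and its difference between the other two was not called (adjusted p = 0.274).

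In WT cultures, 7 of 10 members were higher in MMTV-CAF than in MEF and 8 of 10 than in wound-healing fibroblasts, where 40.6% and 40% of all genes were higher. In the other direction there was 1 member of 10 against 35.5% of all genes, and 2 of 10 against 36.8%, and 76.1% and 76.8% of all genes passed in either direction. The 1 member was Itga4, and the 2 were Itga4 and Itgb1. Itga4 had 4, 0 and 0 counts in WT MMTV-CAF and at most 16 in a culture of the other WT groups. It passed the filter of this model only through mutant MEF. Strain, tissue of origin, count table and the Y-linked gene Kdm5d differ between these types, and their parts cannot be told apart. Kdm5d had 0 counts in WT MMTV-CAF, 744 to 923 in WT MEF and 819 to 974 in WT wound-healing fibroblasts. Itga1 was at 21.2 ± 0.682 CPM (SD, n = 3) in WT MMTV-CAF, 3.66 ± 0.176 in WT MEF and 0.831 ± 0.178 in WT wound-healing fibroblasts. Itgb3 stood at 31.8 ± 0.602, 10.5 ± 0.708 and 6.50 ± 0.193 CPM in the same order, and Itga11 at 42.7 ± 0.638 in MMTV-CAF, 6.67 ± 0.635 in MEF and 13.6 ± 0.687 in wound-healing fibroblasts. Between WT wound-healing fibroblasts and WT MEF, 5 members were lower and 3 were higher (38.7% of all genes in each direction, 77.4% in either). Itgb1 was highest in WT wound-healing fibroblasts, at 1364 ± 1.26 CPM, and its levels in WT MEF (1188 ± 86.9) and WT MMTV-CAF (1133 ± 9.63) overlapped (adjusted p = 0.188).

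Over all 7 groups, Itga11 ran from 0.0365 ± 0.0337 CPM in sgPrrx1 wound-healing fibroblasts to 42.7 ± 0.638 CPM in WT MMTV-CAF, and the neighbors that overlapped in this order were WT and sgPrrx1 MMTV-CAF and, lower down, WT wound-healing fibroblasts and mutant MEF. Itga8 was highest in WT MMTV-CAF, followed by WT wound-healing fibroblasts and WT MEF, which overlapped. The 3 sgPrrx1 groups were the lowest, and they overlapped each other. Itga5 was the 1 member whose 7 groups were all apart, from 367 ± 3.91 CPM in WT MMTV-CAF to 152 ± 3.77 CPM in WT wound-healing fibroblasts.

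Per length, the make-up of the integrin transcripts can be compared between genes. RPKM (CPM divided by the exon length in kilobases) was computed with exon lengths from an earlier annotation, and each subunit was given as a share of the summed RPKM of 18 alpha or 8 beta subunits. Itgb1 held 83.7% of the beta sum in WT MEF, 88.6% in WT wound-healing fibroblasts and 68.2% in WT MMTV-CAF. Itgb5 held most of the rest, 13.5, 9.96 and 28.9%. In Prrx1 loss the share of Itgb5 was 28.9% in mutant MEF, 7.54% in sgPrrx1 MEF, 9.32% for wound-healing fibroblasts and 34.3% for MMTV-CAF. Itgb3 stayed under 2% in each culture. Itga5 held 48.0% of the alpha sum in WT MEF, 29.6% in WT wound-healing fibroblasts and 62.3% in WT MMTV-CAF, and it held 35.9, 42.8, 38.6 and 51.3% in mutant MEF, sgPrrx1 MEF, sgPrrx1 wound-healing fibroblasts and sgPrrx1 MMTV-CAF. Itga11 held 6.19% in WT and 9.11% in sgPrrx1 MMTV-CAF. A share also moves with the sum of the other subunits. Itga11 was at 8.33 RPKM in WT and 8.01 in sgPrrx1 MMTV-CAF, where the alpha sum was 134 and 87.9 RPKM. In the same way, Itgb5 in MMTV-CAF and Itga5 in sgPrrx1 MEF changed in share with no called change in level, although Itgb5 was called higher with library totals alone. These shares were given no test. The members held between 44.4 and 88.4% of the alpha sum and at least 94.5% of the beta sum in each culture. Most of the remaining alpha transcripts were from Itga3, Itga6 and Itga7, receptors mainly for laminin that were named here after their values were seen. Itga3 held 48.4% in mutant MEF, Itga7 27.8% in WT wound-healing fibroblasts and Itga6 14.1% in sgPrrx1 MEF.

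**Figure D3:**
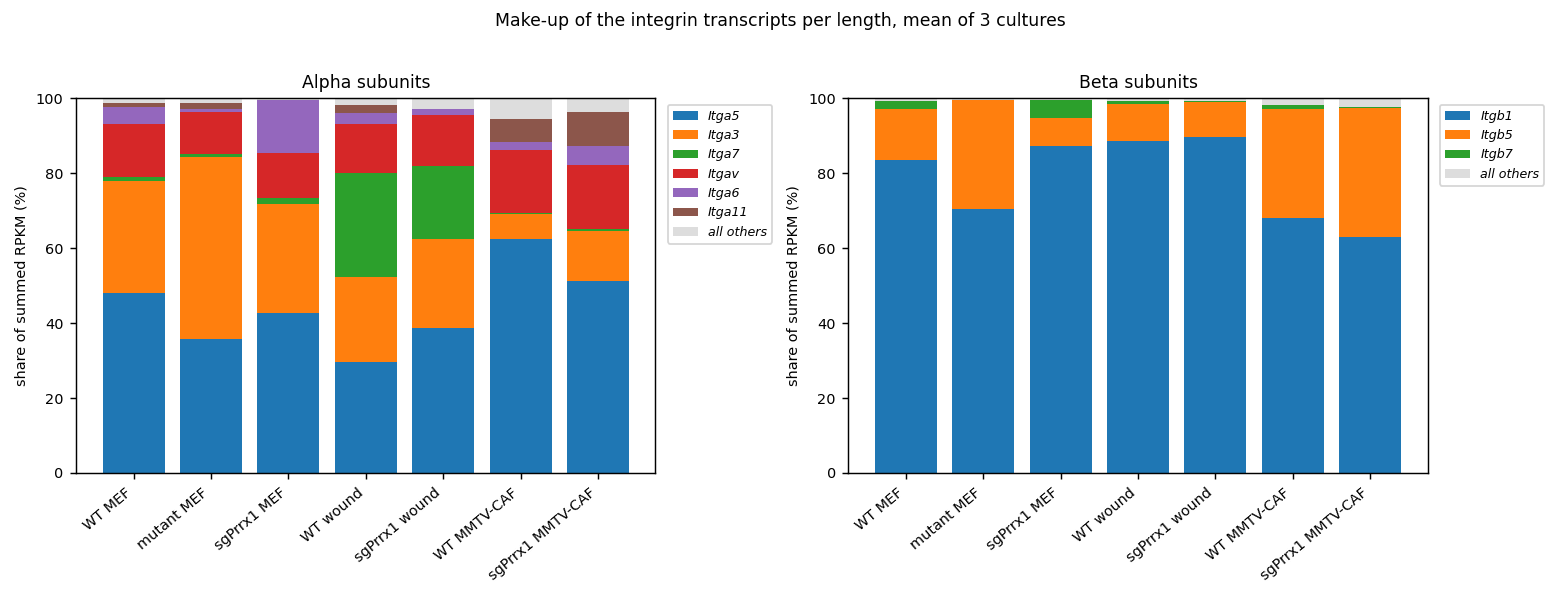
Share of the summed RPKM of alpha subunits (left) and beta subunits (right) held by each gene, as the mean of 3 cultures per group, with genes that never reach 4% pooled in grey. Itgb1 and Itgb5 fill nearly all of the beta bars, and the Itgb5 part is widest in mutant MEF and in both MMTV-CAF groups.

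The members also differed in which of them varied together. Over the 7 group means of log2 CPM, which share cultures' library scale and fibroblast type, Pearson's r was 0.957 for Itga1 with Itgb3, 0.951 for Itga5 with Itgav and 0.823 for Itga11 with Itgb5. It was −0.382 for Itgb1 with Itgb3. Among 12195 genes, those most like Itga11 over the 7 groups were Slc1a3, a glutamate transporter (r = 0.983), Nedd9, an adaptor of focal adhesions (r = 0.978) and Gas1 (r = 0.962). Those most like Itga8 were Dok5 (r = 0.981), Plpp5 (r = 0.965) and Gmppb (r = 0.955). Those most like Itga2 were Ifi27l2b (r = 0.984), Acot4 (r = 0.972) and Cyp4f16 (r = 0.966).

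The ligands of these receptors were followed as a list. Of 24 listed, 10 of 22 tested fell and 8 rose in mutant MEF, 17 of 22 fell and 1 rose in sgPrrx1 MEF, 14 of 21 fell and 7 rose in wound-healing fibroblasts, and 16 of 21 fell and 5 rose in MMTV-CAF. Of all genes, 30.5, 22.8, 39.3 and 41.9% fell and 29.4, 20.3, 38.3 and 41.2% rose. The 7 rises in wound-healing fibroblasts were 4 with all 21 cultures in 1 model. The median log2 fold change was −0.17, −0.65, −0.33 and −1.13 in that order. With at least a 2-fold change, 6, 8, 9 and 11 ligands fell and 1, 0, 0 and 1 rose, where 14.5, 8.97, 7.06 and 12.8% of all genes fell and 9.64, 1.58, 8.57 and 11.5% rose. Postn, a matrix protein bound by Itgav receptors, was among the 2 largest falls in each comparison, at −5.14 ± 0.11 in mutant MEF, −2.08 ± 0.06 in sgPrrx1 MEF, −2.77 ± 0.03 for wound-healing fibroblasts and −7.40 ± 0.03 for MMTV-CAF (adjusted p at most 5.55e-06). In MMTV-CAF it went from between 1880 and 1947 CPM to between 11.1 and 11.9 CPM. Nid1, a basement membrane protein, fell in mutant MEF (−2.55 ± 0.13, adjusted p = 8.45e-06) and was the only ligand to rise in sgPrrx1 MEF (0.83 ± 0.09, adjusted p = 0.000651). It rose in wound-healing fibroblasts (0.16 ± 0.02) but fell in MMTV-CAF (−2.27 ± 0.02). Npnt, a ligand of the Itga8 receptor, rose in mutant MEF (1.90 ± 0.16, adjusted p = 9.79e-05) and in wound-healing fibroblasts (0.23 ± 0.03, adjusted p = 0.000221), and it fell in MMTV-CAF (−2.12 ± 0.03, adjusted p = 2.59e-10). In sgPrrx1 MEF it was not called (0.04 ± 0.15, adjusted p = 0.867). In wound-healing fibroblasts Col1a2, a collagen I chain, fell by 4.14 ± 0.02 on the log2 scale (adjusted p = 3.95e-12) and Tgfb1 rose by 0.99 ± 0.03 (adjusted p = 6.07e-09), whereas Tgfb1 fell in the other 3 comparisons (−0.62, −0.36 and −0.58 in mutant MEF, sgPrrx1 MEF and MMTV-CAF). In MMTV-CAF Tnc fell by 2.69 ± 0.06 (adjusted p = 2.6e-09) and Spp1, or osteopontin, rose by 2.05 ± 0.04 (adjusted p = 1.06e-09). Spp1 also rose in mutant MEF (0.81 ± 0.10) and fell in wound-healing fibroblasts (−1.51 ± 0.03, adjusted p = 5.93e-10).

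The focal adhesion genes tie integrins to actin. Of 29 tested, 15 fell and 2 rose in mutant MEF, 6 fell and 5 rose in sgPrrx1 MEF, 13 fell and 15 rose in wound-healing fibroblasts, and 24 fell and 3 rose in MMTV-CAF. Their medians were −0.32, −0.02, 0.12 and −0.65. With at least a 2-fold change, 4, 1, 0 and 9 fell and 1, 0, 2 and 2 rose, against the same shares of all genes as for the ligands. The 13 falls in wound-healing fibroblasts were 7 with library totals alone and 7 with all 21 cultures in 1 model. The 5 rises in sgPrrx1 MEF were 3 without WT replicate 1 or WT replicate 2, and the 2 rises in mutant MEF were 1 without mutant replicate 3. Tns1, which binds integrin tails, rose by 1.49 ± 0.02 in wound-healing fibroblasts (adjusted p = 3.12e-10) and fell by 3.35 ± 0.03 in MMTV-CAF (adjusted p = 3.95e-11). Lims2, a partner of Ilk, fell by 2.66 ± 0.20 in mutant MEF, by 1.13 ± 0.25 in sgPrrx1 MEF, and its log2 fold change was −4.44 ± 0.12 in MMTV-CAF (adjusted p = 5.18e-05, 0.0111 and 1.07e-08). It rose in wound-healing fibroblasts (0.77 ± 0.17, adjusted p = 0.00344). Zyx was the second largest fall in both MEF comparisons (−1.51 ± 0.22 and −0.77 ± 0.13, adjusted p = 0.00104 and 0.00379).

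Of the 16 other integrin subunits, 6 of 10 tested fell and 4 rose in mutant MEF, 3 of 10 fell and 3 rose in sgPrrx1 MEF, 6 of 12 fell and 3 rose in wound-healing fibroblasts, and 2 of 11 fell and 5 rose in MMTV-CAF. Of all genes, 30.5, 22.8, 39.3 and 41.9% fell and 29.4, 20.3, 38.3 and 41.2% rose, so several of these counts lie near those shares. With at least a 2-fold change, 5, 3, 3 and 2 fell and 1 rose in each. Of all genes, 14.5, 8.97, 7.06 and 12.8% fell that far and 9.64, 1.58, 8.57 and 11.5% rose. The 3 rises in sgPrrx1 MEF were 5 with all 21 cultures in 1 model, and the 2 falls in MMTV-CAF were 1 when at least 10 counts were required in every culture. Itgb8, a partner of Itgav that holds latent TGF-beta, rose in mutant MEF from between 0.638 and 1.17 CPM to between 7.69 and 8.22 CPM (3.06 ± 0.22, adjusted p = 4.48e-05) and was not called in the other 3 comparisons. Itga9, an alpha partner of Itgb1, fell in MMTV-CAF from between 17.3 and 18.2 CPM to between 0.0536 and 0.140 CPM (−7.43 ± 0.14, adjusted p = 1.82e-09), and it also fell in the other 3 comparisons (−2.70, −1.39 and −0.63 in mutant MEF, sgPrrx1 MEF and wound-healing fibroblasts). Itga6 rose in sgPrrx1 MEF from between 57.0 and 64.2 CPM to between 199 and 237 CPM (1.82 ± 0.09, adjusted p = 2.4e-05) and rose in MMTV-CAF (0.59 ± 0.03), and it fell in mutant MEF (−2.35 ± 0.14, adjusted p = 2.02e-05) and in wound-healing fibroblasts (−1.16 ± 0.04, adjusted p = 4.41e-08). Itgb7 fell by 5.28 ± 0.17 in mutant MEF, by 1.66 ± 0.08 in wound-healing fibroblasts and by 2.71 ± 0.05 in MMTV-CAF, and it rose by 0.99 ± 0.08 in sgPrrx1 MEF (adjusted p at most 0.000208).

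**Figure D4:**
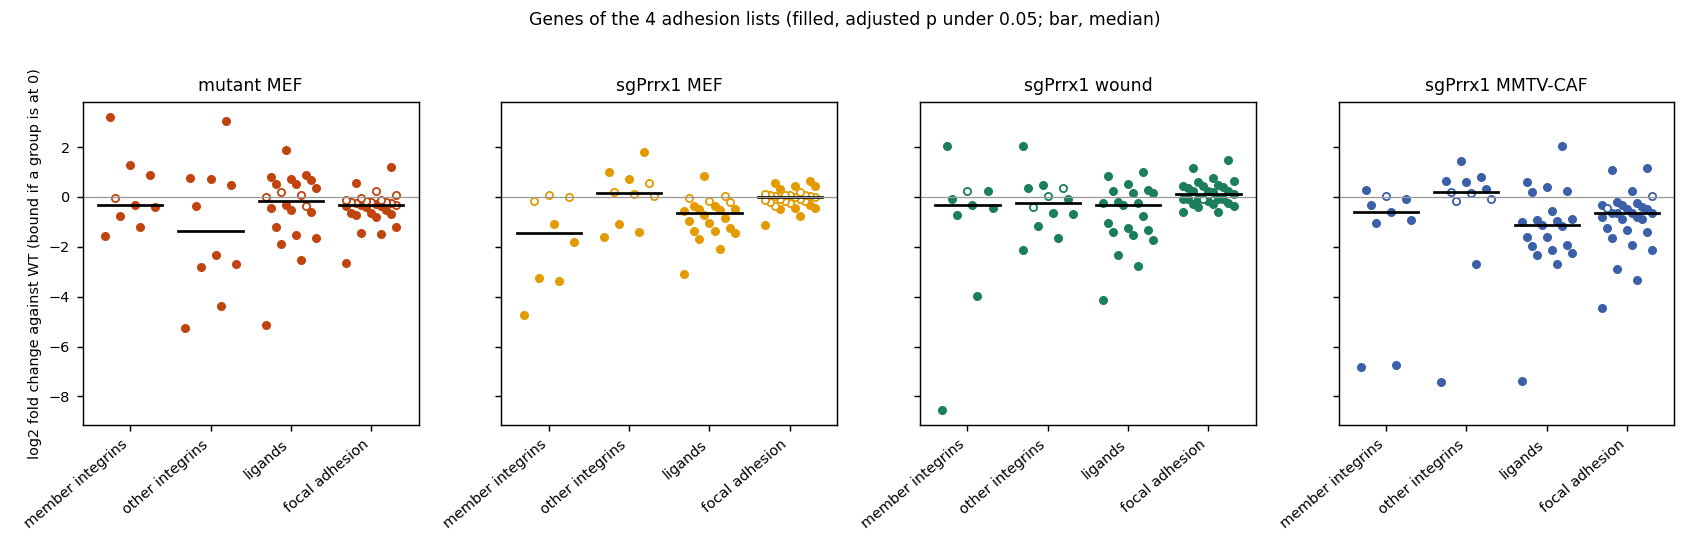
Log2 fold change of each tested gene of the members, the other integrin subunits, the ligands and the focal adhesion genes against WT, in 4 comparisons. Filled points passed the adjusted p of 0.05, the bar is the median, and Itga2 in MMTV-CAF is drawn at its bound. The ligand medians are below 0 in all 4 panels, whereas the focal adhesion median is above 0 in wound-healing fibroblasts and below 0 in MMTV-CAF.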

How the data were processed

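RNA-seq of 21 mouse fibroblast cultures was deposited as counts in 3 tables, 1 per type. The deposited counts are whole reads per gene without normalization. Trimmomatic, STAR (mm10) and HTSeq had made them, per the submitters' processing notes, and the strand setting was not given in the sources used here. The study's methods name ComBat-seq after describing human data, and do not say whether mouse counts were adjusted. Each of the 21 columns was mapped to a sample. Columns of wound-healing fibroblasts do not name the type and were assigned by elimination. Small counts were even more often than odd (51.0 to 60.3% of values from 1 to 20), so both mates of a pair may have been counted, and halved counts were tried.

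Counts were tested in R 4.3.3 with edgeR 4.0.16 (TMM scaling, filterByExpr by group, glmQLFit, glmQLFTest), with adjustment over all tested genes and only the 6 cultures of a comparison in its model. The SE is the absolute log2 fold change divided by the square root of F. Levels and WT differences came from all 21 cultures in 1 model, and differences between types from 18 cultures. RPKM was computed here with exon-union lengths from Gencode M1, an annotation of another build than mm10. Alternatives included DESeq2 1.42.0, other scalings and filters, the replicate number as a block, a 2-fold threshold and leaving out each culture. Simulated counts with 200 changed genes served to check the pairwise test, in wound-healing fibroblasts, and the interaction test. Far fewer genes changed there than in these data, so the check does not cover scaling when most genes change. The other models and the shares were not checked in this way. Tables and plots used Python 3.11.15, numpy 2.4.6, pandas 2.3.3 and matplotlib 3.10.9.

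The members and lists were chosen with earlier results of these data known. All 10 members are described; from each other list, the 2 largest falls and 2 largest rises past the threshold in each comparison could be named. Genes most like a member were the 3 with the highest r over 7 group means, for the 3 members with the widest range. Kdm5d, Itga3, Itga6 in the make-up and Itga7 were chosen after values were seen. The SE comes from the quasi-likelihood fit, which takes in the spread between cultures as well as counting error. The SD is the spread of 3 cultures. Only the floor of 3 counts per culture covers counting error alone.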

Additional observations from a re-analysis of the deposited data

Results flagged for a closer look

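For each of the 10 members, the sgPrrx1 change differed between MEF, wound-healing fibroblasts and MMTV-CAF by the interaction test of edgeR. The adjusted p was 3.28e-12 for Itga11, 2.38e-12 for Itga5, 1.84e-11 for Itgb3, 4.75e-09 for Itga1, 8.52e-09 for Itgb5. It was 1.04e-08 for Itga2, 1.18e-05 for Itgav, 0.00772 for Itga8, 0.0139 for Itgb1, 0.0481 for Itga4. The same test passed for 80.1% of all genes and for Prrx1 itself (adjusted p = 0.00145). Itga2 and Itga4 were at or near 0 counts in MEF, so the size of their differences from MEF is not defined, and 0 or near-0 counts also lie behind Itga4 in MMTV-CAF. Groups of 3 cultures were too small to test for single outlying cultures.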

How the results depend on the processing

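Over the fold changes of the 10 members and their alternatives, 695 values kept their direction and their side of the threshold, 31 kept direction and lost their call, 12 gained one and 5 changed sign. The differences between types are not in this tally and are given at the end of the paragraph. With at least a 2-fold change also required, members lower were 2 rather than 5 in mutant MEF, 2 rather than 6 in wound-healing fibroblasts and 3 rather than 7 in MMTV-CAF, and members higher were 1 rather than 2 in wound-healing fibroblasts and 0 rather than 1 in MMTV-CAF. With all 21 cultures in 1 model, 8 members rather than 5 were lower in sgPrrx1 MEF. Itga2 and Itga4 were among those added, and they passed that model's filter only through counts in other groups. With library totals alone, 2 members rather than 1 were higher in MMTV-CAF, Itgb5 being added. DESeq2 called 2 rather than 1 higher in sgPrrx1 than in mutant MEF. RLE scaling and halved counts each gave 2 rather than 1 lower in WT MMTV-CAF than in WT MEF. Leaving out 1 culture gave 1 to 2 members higher in MMTV-CAF and 1 to 2 higher in sgPrrx1 than in mutant MEF. The changes of sign were all near 0. With library totals alone, the log2 fold change of Itgb1 in mutant MEF was 0.034, that of Itgav in wound-healing fibroblasts 0.026 and that of Itga11 in MMTV-CAF 0.058. Itgav in sgPrrx1 MEF was 0.021 without WT replicate 3 and 0.060 without sgPrrx1 replicate 1, and it ran from −0.086 to 0.060 over the cultures left out. Itgb1 lost its difference between types with library totals alone (adjusted p = 0.745). Itga4 lost its difference between types in 15 of 23 alternatives (adjusted p up to 0.0919). The cause of these was not tested.

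Same-numbered cultures did not deviate together: the correlation of their deviations ran from −0.355 to 0.203 over the comparisons, so the numbers were not treated as pairs. With the replicate number as a block, 3 members rather than 5 were lower in mutant MEF, since Itga8 (adjusted p = 0.063) and Itgav (0.0879) lost their calls. Counts under about 10 limit Itga2, Itga4 and Itga8 in several groups.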

Other observations

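Summed per length, alpha subunits stood at 145 ± 1.23 RPKM (SD, n = 3) in WT MEF, 150.0 ± 12.5 in mutant MEF and 171 ± 0.818 in sgPrrx1 MEF. They stood at 117 ± 0.178 in WT and 105 ± 1.09 in sgPrrx1 wound-healing fibroblasts, and at 134 ± 0.972 in WT and 87.9 ± 0.661 in sgPrrx1 MMTV-CAF. Summed beta subunits were at 348 ± 23.1 RPKM in WT MEF, 403 ± 7.16 in mutant MEF and 300.0 ± 2.64 in sgPrrx1 MEF, at 377 ± 1.25 and 296 ± 3.10 in WT and sgPrrx1 wound-healing fibroblasts, and at 407 ± 1.81 and 356 ± 0.364 in WT and sgPrrx1 MMTV-CAF. The sums rest on Itgb1, Itgb5, Itga5 and a few other abundant subunits, and they were given no test.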
